A study of Mus musculus with 2 samples.

Results

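Endosomal sorting genes were followed across the cell types of the early postnatal mouse cortex: 38 genes of the Rab GTPases of early, late and recycling endosomes, the retromer with its sorting nexins and WASH complex, the EHD proteins and the ESCRT machinery. They were taken by symbol from the 32285 genes of the deposited tables, and all 38 were found. The 38 genes took 0.324% of the UMIs (unique molecular identifiers, each counting 1 captured RNA molecule) of the kept barcodes of the wild-type library and 0.340% of those of the mutant library. Rab4a, a GTPase of fast recycling, is described apart from the other 37, because earlier results of these data had already set it apart.

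The study has 2 libraries of cortex from mice at postnatal day 5, 1 of wild-type genotype (WT) and 1 of animals with a mutation of Katnal2 (Mut), a relative of the microtubule-severing enzyme katanin. The tissue was digested with trypsin and then collagenase, strained, sorted by flow cytometry and encapsulated on a droplet platform, and the labels also note dissection and frozen storage. The sources used here do not give the mutated part of Katnal2, the sort gate, the strain or the number of animals per library. The design text names 3 replicates per sample, but within a library all barcodes end in the same suffix, so each genotype counts as 1 sample and no difference between genotypes has a replicate check.

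Endosomes sort what a cell takes up. Early endosomes carry the GTPase Rab5 and its tether Eea1, and from there a receptor either returns to the surface through Rab4, Rab35 and Rab11 routes or moves on as Rab7 takes the place of Rab5. Retromer and sorting nexins pull receptors out of the maturing endosome into tubules, the WASH complex builds the actin patches at which these form, EHD proteins remodel and cut the tubules, and the ESCRT machinery folds ubiquitin-tagged receptors into internal vesicles for the lysosome. In the developing brain the same routes return guidance, growth factor and nutrient receptors, and Rab8 and Rab11 deliver membrane to the primary cilium.

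Promoter sequences are shown for Snx1, Vps4a, Washc1 and Washc4. Of the list, Snx1 and Vps4a had, with Rab4a, the largest median ratios between genotypes over the cell classes compared below. Washc1 and Washc4 are WASH complex genes shown as examples of windows that hold the motif searched. Each sequence is the RefSeq window (build GRCm38.p6) from 250 bases before to 50 bases after an annotated start, written 5′ to 3′ on the gene's strand. Capitals mark CACGTG, the palindromic E-box that many basic helix-loop-helix factors bind, searched as these letters, which read the same on both strands.
Snx1, chr9:66124837-66125136, minus strand: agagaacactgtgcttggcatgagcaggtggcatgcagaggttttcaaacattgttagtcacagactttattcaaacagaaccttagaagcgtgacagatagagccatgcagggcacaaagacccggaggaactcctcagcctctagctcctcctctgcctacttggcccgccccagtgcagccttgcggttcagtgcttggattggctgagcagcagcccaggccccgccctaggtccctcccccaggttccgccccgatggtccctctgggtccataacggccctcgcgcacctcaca
Vps4a, chr8:107031019-107031318, plus strand: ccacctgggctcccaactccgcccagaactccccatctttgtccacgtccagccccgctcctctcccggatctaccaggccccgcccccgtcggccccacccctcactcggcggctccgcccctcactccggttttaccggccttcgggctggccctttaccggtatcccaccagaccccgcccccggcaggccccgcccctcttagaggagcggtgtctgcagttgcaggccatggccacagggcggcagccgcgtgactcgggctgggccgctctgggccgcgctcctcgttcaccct
Washc1, chr17:66111395-66111694, plus strand: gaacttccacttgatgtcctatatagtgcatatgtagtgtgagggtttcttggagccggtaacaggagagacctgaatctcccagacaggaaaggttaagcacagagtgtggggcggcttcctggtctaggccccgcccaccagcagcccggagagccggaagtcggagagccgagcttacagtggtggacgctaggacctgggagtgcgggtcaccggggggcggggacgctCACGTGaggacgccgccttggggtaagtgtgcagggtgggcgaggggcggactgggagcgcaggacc
Washc4, chr10:83543691-83543990, plus strand: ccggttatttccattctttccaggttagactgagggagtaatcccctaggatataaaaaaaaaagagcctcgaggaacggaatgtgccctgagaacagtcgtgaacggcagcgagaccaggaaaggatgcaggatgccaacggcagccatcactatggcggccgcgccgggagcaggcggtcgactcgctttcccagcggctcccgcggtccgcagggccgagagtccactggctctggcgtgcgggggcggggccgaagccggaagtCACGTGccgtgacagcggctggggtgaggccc
Of the 38 genes, 32 had an entry in the RefSeq table, with 37 promoter windows among them. CACGTG stood in 7 of these 37 windows, in Pdcd6ip, Rab5a, Snx5, Vps26a, Washc1 and Washc4, and in 7.15% of all 32851 windows of the table. The windows of Snx1 and Vps4a do not hold these letters, nor does a second Washc1 window that starts further upstream. The Snx1 window lies inside the gene span given below, which ends at 66126587, so it does not cover the start of that span. Of the Washc1 windows, the second one is set on the start closer to 66111545, where the gene span given below begins. A match is a description of the letters only.

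The WT library held 93664707 UMIs and the Mut library 97891513. A barcode was kept if it reached 1000 UMIs and 500 genes and had no more than 20% of its UMIs from mitochondrial genes, which left 11024 in WT and 10102 in Mut, with medians of 6446 and 7625.5 UMIs. The libraries shared 39 barcode sequences among the kept barcodes. Cells with Xist and no Y-linked UMI numbered 3822 in WT and 5248 in Mut, and cells with a Y-linked UMI and no Xist numbered 4258 and 2757, so the makeup by sex differed between the libraries. Katnal2 itself had 3.87 counts per 1000000 UMIs (CPM) in WT and 4.82 in Mut over the kept barcodes, a ratio interval of 1.08 to 1.44. In ependymal cells it had 74.1 and 75.4 CPM, from 8 and 12 UMIs, with a wide ratio interval of 0.383 to 2.87. Since the mutated part is not given, this level does not check the genotype labels.

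A barcode was given a cell class by how many of 8 markers of that class it showed, at least 5 for most classes, and each class name stands for cells that are like that type by these markers. Barcodes meeting the rules of more than 1 class, radial glia and erythroid markers aside, were left out, 511 in WT and 575 in Mut. Another 1517 and 969 met no rule. Radial glia markers set a class only for barcodes that met no other class rule and showed at most 3 astrocyte markers. A barcode with 5 or more radial glia markers that met 1 other class rule stayed in that other class. Astrocytes showed a median of 4 radial glia markers in WT and 5 in Mut. The 16 and 9 erythroid cells were not used. The 7 classes with at least 100 cells in each library were compared: astrocytes (4230 cells in WT, 4173 in Mut), oligodendrocyte precursors (1888 and 1728), inhibitory neurons (1397 and 1012), microglia (420 and 327), endothelial cells (279 and 348), mural cells of vessel walls (216 and 245) and a class of 215 and 179 cells. That last class was set by radial glia markers, but a single one of them was among its top 10 genes by fold, so it is called by its rule, the radial-marker cells, and not by a cell type. Of its cells, 131 in WT and 106 in Mut showed just the 5 markers needed. Excitatory neurons, the main neurons of cortex, were scarce, with 44 cells in WT and 47 in Mut. They and the oligodendrocytes (61 and 48), Cajal-Retzius cells (44 and 36), border-associated macrophages (86 and 198), monocytes (31 and 36), fibroblasts (56 and 150) and ependymal cells (13 and 17) are given as levels only.

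The endosomal genes differed in their patterns over the cell classes, and for most of them the 2 libraries had the same highest class. The class with the highest level was the same in both libraries for 32 of the 38 genes. For Rab35, Washc1, Ehd1 and Hgs the Poisson 95% intervals of all neighbouring classes overlapped in both libraries, so their order of classes is not settled. Every other gene of the list also had some neighbouring classes with overlapping intervals in each library. The lowest class of Hgs was microglia in WT and the radial-marker cells in Mut. The ratio of the highest to the lowest class level, with 5 CPM added to each, ran from 1.36 to 31.9 with a median of 2.46. Microglia held the highest level of 13 genes in WT and 14 in Mut, and also the lowest of 11 and 7. Oligodendrocyte precursors held the highest level of 8 and 9 genes and the lowest of none. A level at least 2-fold above that of every other compared class was seen for the same 4 genes in each library: Ehd4, Snx2 and Snx5 in microglia and Rab11fip1 in endothelial cells. None of these counts was made over all genes. They describe the 38 genes and do not show a trait particular to them. Summed over the 38 genes, the level was 6367 CPM in WT and 6938 in Mut in border-associated macrophages, and between 2640 and 4171 CPM in every other class with levels. Levels are read between classes here, not between genes, and in the paragraphs by role the highest and lowest class are those among the 7 compared classes, since some scarce classes lie outside that range.

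**Figure D1:**
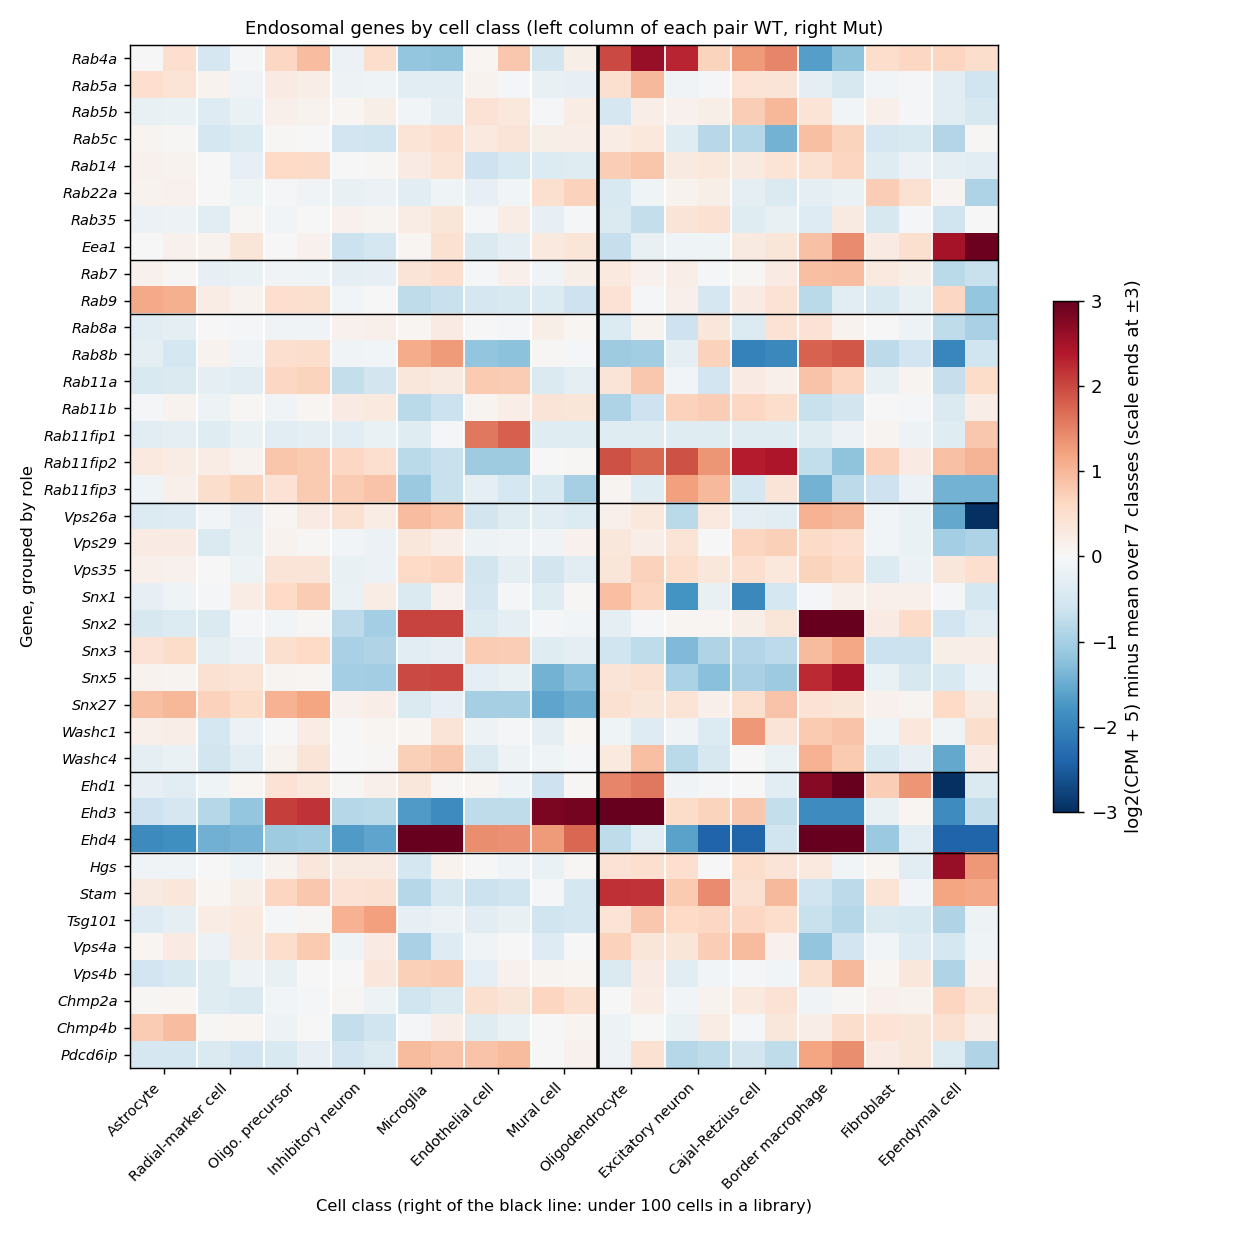
Level of the 38 endosomal genes in 13 cell classes, as log2 of CPM plus 5 minus the gene's mean over the 7 compared classes and both libraries; each class has a WT column on the left and a Mut column on the right, and genes are grouped by role from early endosome at the top to ESCRT at the bottom. Columns of a pair look alike for most genes, and among the darkest red fields are Ehd4 in microglia, Ehd4, Snx2 and Ehd1 in border-associated macrophages, Ehd3 in mural cells and oligodendrocytes, and Eea1 in the 13 and 17 ependymal cells.

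Among the early endosome genes, the 3 Rab5 paralogs, which direct fusion of incoming vesicles, had their highest measured level in different classes. For Rab5b and Rab5c the Poisson intervals of the highest and the next class overlapped in both libraries, so their highest class is not settled. Rab5a had 168 CPM in astrocytes of WT and 158 in those of Mut, against 91.5 and 93.8 in microglia, its lowest compared class in both. Rab5c was highest in microglia, at 190 and 202 CPM, and lowest in inhibitory neurons, at 93.9 and 91.7. Rab5b was highest among the compared classes in endothelial cells, at 51.6 and 46.7 CPM, and lowest in the radial-marker cells of WT at 26.7 and in microglia of Mut at 29.2. The tether Eea1 lay between 37.6 and 86.3 CPM in the 7 compared classes. In the few ependymal cells, the ciliated cells that line the ventricles, it reached 371 CPM in WT, from 40 UMIs in 10 of 13 cells, and 509 in Mut, from 81 UMIs in 13 of 17 cells, and 341 and 462 without the cell with the most UMIs. The class next to them was the border-associated macrophages, at 118 and 175 CPM.

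Rab9, which returns receptors from late endosomes to the Golgi, was highest in astrocytes, at 174 CPM in WT and 166 in Mut, then in oligodendrocyte precursors at 110 and 108, and lowest of the compared classes in microglia at 43.0 and 46.3. Rab7, which directs late endosomes to lysosomes, varied less, from 110 CPM in inhibitory neurons to 175 in microglia of WT, and from 112 to 190 in Mut.

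The recycling Rabs came as pairs with different class patterns. Rab8b stood at 115 and 128 CPM in microglia and 19.2 and 18.5 in endothelial cells, while its paralog Rab8a stayed between 52.4 and 79.6 CPM in all 7 classes. Rab11a, the Rab of the recycling endosome, was highest among the compared classes in endothelial cells (217 and 212 CPM) and oligodendrocyte precursors (193 and 199), and lowest in inhibitory neurons (72.5 and 82.3). Rab11b, its close relative, instead was lowest among them in microglia, at 63.3 and 70.9 CPM, with 137 and 140 in inhibitory neurons and 149 and 148 in mural cells. The Rab11 effector Rab11fip1 was close to absent outside a few classes. It had 14.0 CPM in WT and 17.1 in Mut in endothelial cells, 137 and 86.6 CPM in the few monocytes, and no UMI in mural cells of either library, where a count of 0 allows up to 2.84 and 2.46 CPM. Rab11fip2 was highest in oligodendrocyte precursors among the compared classes, at 71.4 and 68.7 CPM, and reached 217 and 225 CPM in Cajal-Retzius cells.

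Among the sorting nexins, Snx2 and Snx5 had a clear peak in microglia. Snx2, a membrane-bending partner of retromer, had 247 CPM in WT microglia, 250 in Mut microglia and from 25.7 to 59.0 CPM in the other 6 classes, and at 866 and 943 in border-associated macrophages. Its paralog Snx1 had no such peak: among the compared classes it was highest in oligodendrocyte precursors, at 60.3 and 68.7 CPM, while the few oligodendrocytes and monocytes of WT had 75.9 and 76.9. Snx5, which pairs with Snx1 or Snx2 and recognises cargo, followed Snx2 with 373 and 382 CPM in microglia, 452 and 539 in border-associated macrophages, and 31.2 and 35.3 in mural cells, whose Poisson intervals overlapped those of inhibitory neurons at 42.2 and 42.1. Among the compared classes the retromer subunits were also highest in microglia of WT, where Vps26a stood at 73.7 CPM, Vps29 at 174 and Vps35 at 187, but against 23.4, 101 and 82.1 CPM in their lowest classes. In Mut the microglia had 69.2, 158 and 195 CPM of them, and Vps29 was highest in astrocytes at 162.

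The EHD proteins, ATPases that shape and cut recycling tubules, held the 2 genes with the widest spread of the list, Ehd4 and Ehd3, and also Ehd1, whose highest-to-lowest ratio was 1.59. Ehd4 had 219 CPM in WT microglia and 231 in Mut microglia, with lower levels at 64.7 and 63.8 in endothelial cells, at 58.6 and 82.0 in mural cells, and at only 2.08 and 2.34 in astrocytes, where RNA free in the suspension had 17.1 and 16.8 CPM. Border-associated macrophages had 875 and 952 CPM of Ehd4. Ehd3 had another order: 126 and 130 CPM in mural cells, 72.9 and 78.6 in oligodendrocyte precursors, 173 and 160 in the few oligodendrocytes, and 0.741 and 0 in microglia, with no UMI in Mut. Ehd1 lay between 27.4 and 61.9 CPM in the 7 compared classes and reached 325 and 436 in border-associated macrophages.

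Among the ESCRT genes, the ratio of the highest to the lowest class level ran from 1.40 to 3.27. Tsg101, the ESCRT-I subunit that binds ubiquitin-tagged cargo, stood out in inhibitory neurons, at 195 CPM in WT and 223 in Mut, with 108 and 113 in the radial-marker cells and 58.6 and 62.3 in mural cells. Pdcd6ip (ALIX), an adaptor that recruits ESCRT-III, was highest in microglia (104 and 96.3 CPM) and endothelial cells (97.1 and 103) and between 32.8 and 56.6 CPM in the other 5 classes. The ATPase Vps4b, which takes ESCRT-III filaments apart, was highest in microglia at 96.3 and 99.2 CPM. Its paralog Vps4a was, among the compared classes, lowest there, at 18.9 and 30.9 CPM, and highest in oligodendrocyte precursors at 62.6 and 76.4. Hgs, the ESCRT-0 subunit that first captures ubiquitin-tagged cargo, had 195 CPM in the 13 ependymal cells of WT and 75.4 in the 17 of Mut, from 21 and 12 UMIs; 1 WT cell held 7 of these, and without it the WT level was 149.

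Rab4a (ENSMUSG00000019478, chromosome 8, 123805985 to 123835287, plus strand, GRCm38) was higher in the Mut library in each of the 6 compared classes where it had enough UMIs for a ratio. No other counted gene overlaps it. Astrocytes had 15.7 CPM in WT (Poisson 95% interval 14.5 to 17.1, from 607 UMIs) and 25.1 in Mut (23.6 to 26.7, from 1074 UMIs). Oligodendrocyte precursors, the compared class with the highest level, had 27.4 CPM (24.4 to 30.6) and 34.8 (31.4 to 38.4). Inhibitory neurons had 13.6 CPM (11.0 to 16.7) and 25.1 (21.1 to 29.7), and endothelial cells 17.0 (13.2 to 21.5) and 32.0 (27.1 to 37.5). In these 4 classes the WT and Mut intervals did not overlap. The radial-marker cells had 9.96 CPM from 19 UMIs and 15.6 from 28, and mural cells 9.45 from 10 UMIs and 18.9 from 23, with intervals that overlapped. Microglia had 12 and 10 UMIs, 4.44 and 4.17 CPM, which is under the minimum of 30 UMIs used for a ratio. Free RNA, read from barcodes of 10 to 100 UMIs, held 22.8 CPM of Rab4a in WT and 27.7 in Mut.

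**Figure D2:**
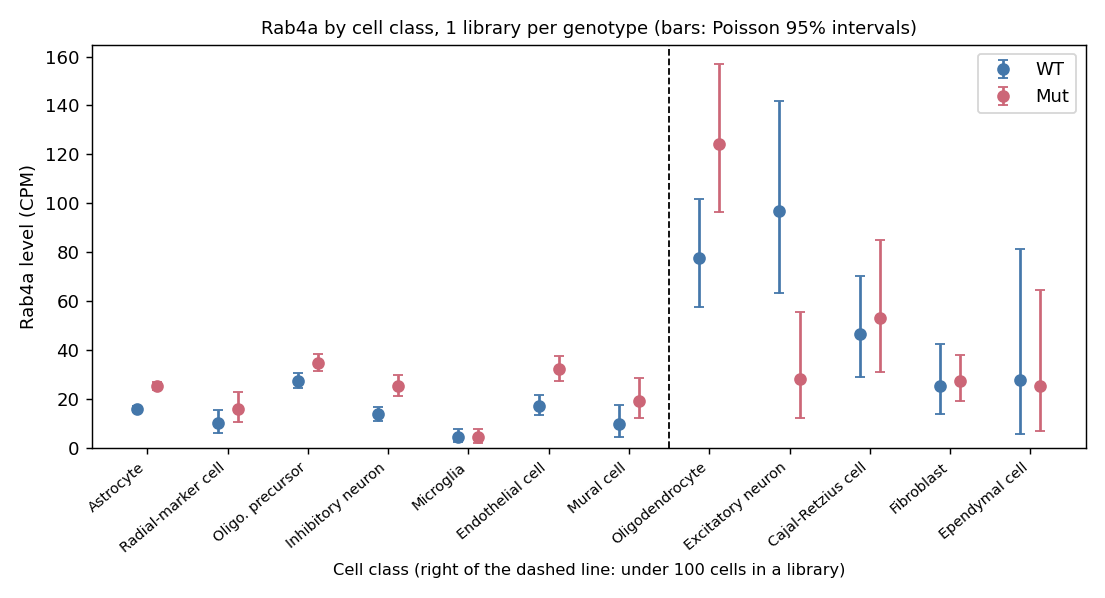
Rab4a level in CPM by cell class in the WT and the Mut library; points are levels of the summed UMIs of a class and bars are exact Poisson 95% intervals, which cover counting error only. Mut lies above WT in astrocytes, radial-marker cells, oligodendrocyte precursors, inhibitory neurons, endothelial and mural cells and level with it in microglia; right of the dashed line are classes with under 100 cells in a library.

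As a ratio of Mut to WT, Rab4a stood at 1.59 in astrocytes (exact binomial 95% interval 1.44 to 1.76), 1.27 in oligodendrocyte precursors (1.09 to 1.48), 1.84 in inhibitory neurons (1.41 to 2.43) and 1.89 in endothelial cells (1.41 to 2.55). In the radial-marker cells it was 1.57 (0.845 to 2.97) and in mural cells the interval was 0.914 to 4.70. The median log2 ratio of CPM plus 5 over the 6 classes was 0.62, with a range of 0.30 to 0.75, and over all kept barcodes the ratio was 1.45 (1.36 to 1.54). Of 10522 genes measured in at least 4 classes, 9 had a higher median. The medians of all these genes had a median of 0.05 on the same scale. Earlier results of these same data had already set Rab4a apart, so its rank is a description and not independent support. These intervals cover counting error alone, and with 1 library per genotype the difference between the libraries cannot be told apart from a difference between any 2 cell preparations.

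Over the summed compared classes the difference was seen in the cells of each sex. In cells with Xist, Rab4a had 17.9 CPM in WT and 24.1 in Mut over the compared classes, a ratio of 1.35 (1.20 to 1.51). In cells with a Y-linked UMI it stood at 15.6 and 28.1 CPM, a ratio of 1.80 (1.59 to 2.04). By class, the ratio in cells with Xist was 1.42 (1.22 to 1.66) in astrocytes and 1.85 (1.17 to 3.01) in inhibitory neurons. It was 1.13 (0.905 to 1.41) in oligodendrocyte precursors and 1.60 (0.987 to 2.67) in endothelial cells, intervals that hold 1. In cells with a Y-linked UMI the intervals of the same classes all lay above 1. The other compared classes had too few UMIs for a ratio in either sex. Within WT the male to female ratio was 0.871 (0.762 to 0.995), and within Mut it was 1.16 (1.05 to 1.29). The Mut library was deeper per cell. With each cell thinned to 1000 UMIs, the share of astrocytes with a Rab4a UMI was 1.66% in WT (Clopper-Pearson 95% interval 1.29 to 2.09) and 2.56% in Mut (2.11 to 3.09). Before thinning it was 13.2% and 22.6%. Thinned shares in oligodendrocyte precursors were 2.6% in WT (1.93 to 3.42) and 3.59% in Mut (2.76 to 4.58). In inhibitory neurons they were 1.22% (0.71 to 1.94) and 2.37% (1.525 to 3.51). Endothelial cells had 0.717% and 2.01%, radial-marker cells 0.930% and 1.68%, and mural cells 1.39% and 1.22%. In microglia the thinned share was 0.952% and 0.612%, and before thinning it was 2.86% and 3.06%. Outside astrocytes the thinned WT and Mut intervals overlapped in every compared class.

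Rab4a had 16.9 CPM in WT and 26.0 in Mut over the summed compared classes, a ratio of 1.54 (1.43 to 1.66). Genes within 500 kb of it on chromosome 8 that had over 500 UMIs in WT had median log2 ratios over classes from -0.05 for Nup133, a nuclear pore subunit, to 0.26 for Taf5l, a subunit of transcription coactivator complexes, on the scale on which Rab4a had 0.62. The nearest of them on either side were Ccsap at -0.03 and Rhou at 0.07.

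In the scarce classes the 2 libraries did not all point the same way. Oligodendrocytes had the highest Rab4a levels of the glia, 77.4 CPM from 51 UMIs in WT against 124 from 69 UMIs in Mut, with a ratio interval of 1.10 to 2.35. Excitatory neurons went the other way, with 96.9 CPM in WT from 26 UMIs in 16 of 44 cells and 28.2 in Mut from 8 UMIs, a ratio of 0.291 (0.114 to 0.662). A single WT cell held 7 of the 26 UMIs, and without it the level was 80.9 CPM. Cajal-Retzius cells had 46.3 and 53.1 CPM and fibroblasts 25.3 and 27.4. Ependymal cells had 3 and 4 UMIs, border-associated macrophages 1 and 6, and monocytes 0 and 1.

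Apart from Rab4a, the endosomal genes differed little between the libraries. Of the other 37 genes, 36 had at least 30 UMIs over both libraries in at least 4 compared classes. By the median log2 ratio, 27 of these 36 were higher in Mut and 9 lower; 69.7% of all 10522 genes measured that way were also above 0. The scaling sets this split: with TMM scaling 19 of the 36 genes were higher, beside 51.7% of all genes. The median over the 36 genes was 0.06, against 0.05 for all genes, and the values ran from -0.10 to 0.41. A gene was called where its median ratio was at least 25% higher or 20% lower in Mut. Snx1 and Vps4a were the 2 genes called higher, as were 1.1% of all genes, and 0 were called lower, as were 0.456% of all genes. The gene not measured in 4 classes was Rab11fip1.

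**Figure D3:**
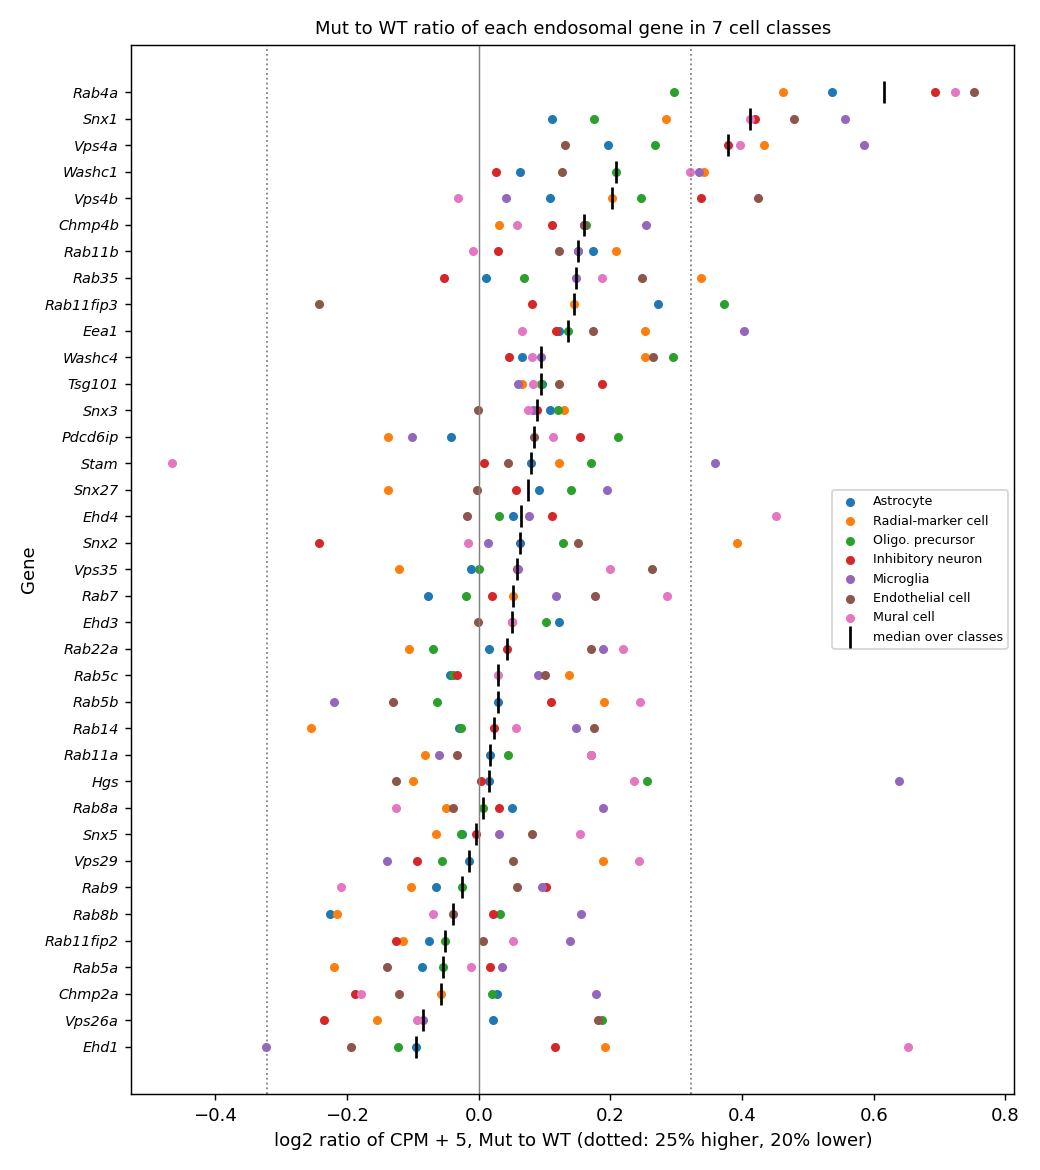
Log2 ratio of CPM plus 5, Mut to WT, of the 37 endosomal genes measured in at least 4 of the 7 compared classes; each point is 1 class, the black bar is the median over classes, and dotted lines mark a ratio 25% higher and 20% lower. Of the bars, those of Rab4a, Snx1 and Vps4a lie past the right dotted line, and classes of the same gene scatter widely, as for Stam, Hgs and Ehd1.

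**Figure D4:**
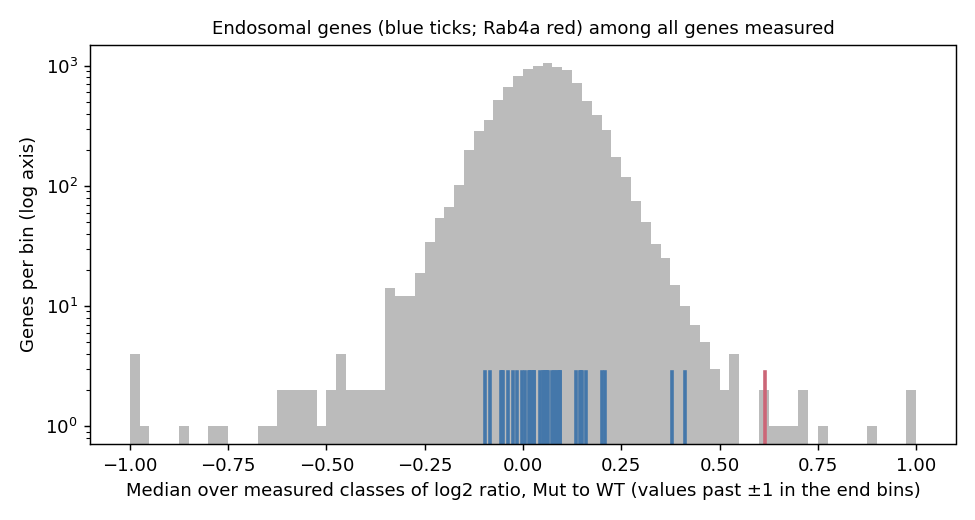
Histogram of the median log2 ratio, Mut to WT, of all 10522 genes measured in at least 4 compared classes, on a log axis of gene counts, with the endosomal genes as blue ticks and Rab4a as a red tick at 0.62. Most ticks lie in the bulk of all genes, between -0.10 and 0.21, and those of Snx1 (0.41) and Vps4a (0.38) stand to its right.

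Snx1 (ENSMUSG00000032382, chromosome 9, 66088133 to 66126587, minus strand), the retromer-linked sorting nexin whose promoter window is given above, was higher in Mut in 7 of 7 classes. It had 31.2 CPM in WT and 34.1 in Mut in astrocytes, 60.3 and 68.7 in oligodendrocyte precursors, 32.8 and 45.6 in inhibitory neurons, 27.0 and 42.1 in microglia, and 25.3 and 37.3 in endothelial cells. The radial-marker cells had 36.2 and 45.2 CPM and mural cells 28.4 and 39.4. The ratio was smallest in the class with the most cells, at 1.09 in astrocytes (1.01 to 1.18), and largest in microglia, at 1.56 (1.14 to 2.13). Intervals held 1 in the radial-marker and mural cells and did not in the other 5 classes. Over all kept barcodes the ratio was 1.15 (1.10 to 1.21). In the scarce oligodendrocytes Snx1 stood at 75.9 and 63.0 CPM, a ratio of 0.829 (0.523 to 1.30).

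Vps4a (ENSMUSG00000031913, chromosome 8, 107031222 to 107045755, plus strand) was also higher in 7 of 7 classes. It had 43.7 and 50.8 CPM in astrocytes, 62.6 and 76.4 in oligodendrocyte precursors, 38.1 and 51.0 in inhibitory neurons, and 18.9 and 30.9 in microglia. The radial-marker cells had 36.7 and 51.3 CPM, endothelial cells 38.6 and 42.7, and mural cells 31.2 and 42.6. The ratio was 1.16 in astrocytes (1.09 to 1.24) and 1.63 in microglia (1.13 to 2.38), and over all kept barcodes 1.16 (1.11 to 1.21). Intervals held 1 in endothelial and mural cells. Vps4a overlaps Pdf on the other strand, and the sources used here do not say whether the counting used strand. In Cajal-Retzius cells, outside the compared classes, Vps4a stood at 86.2 and 46.8 CPM (41 and 15 UMIs), and in oligodendrocytes at 71.4 and 55.8. Both calls lie near the limit: Snx1 fell short of it at a median log2 ratio of 0.30 in male cells, and Vps4a at 0.21 in female cells and 0.31 with TMM scaling.

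By role, the counts stand beside the 69.7% of all genes above 0, or 51.7% with TMM scaling. The early endosome genes other than Rab4a were higher in Mut for 6 of 7, from Rab35 (0.15), which drives fast recycling, to Rab5a (-0.05). Of the late endosome genes Rab7 had 0.05 and Rab9 -0.03. Of the 6 recycling genes measured, 4 were higher, from Rab11b (0.15) to Rab11fip2 (-0.05). The retromer, sorting nexin and WASH genes were higher for 7 of 10, from Snx1 (0.41) to the retromer subunit Vps26a (-0.08), and their median was 0.07. EHD genes were higher for 2 of 3, from Ehd4 (0.06) to Ehd1 (-0.10). ESCRT genes were higher for 7 of 8, from Vps4a (0.38) to the ESCRT-III subunit Chmp2a (-0.06), with a median of 0.09.

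Of 32 of these 37 genes measured in all 7 classes, 7 were higher in Mut in every class: Eea1, Snx1, Washc1, Washc4, Tsg101, Vps4a and Chmp4b. Of 6247 genes measured in all 7 classes, 12.2% did the same, and none of the 32 was lower in every class. Washc1, the subunit that activates actin branching (chromosome 17, 66111545 to 66120503, plus strand), had ratios from 1.02 in inhibitory neurons (0.793 to 1.32) to 1.37 in the radial-marker cells (0.781 to 2.45). Chmp4b, the ESCRT-III subunit that forms the filament, had 209 CPM in WT and 234 in Mut in astrocytes, a ratio of 1.12 (1.09 to 1.15). Vps4b, the paralog of Vps4a, had a median of 0.20 and was higher in 6 of 7 classes, with 45.5 and 62.7 CPM in endothelial cells and 60.5 and 59.0 in mural cells.

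The same counts were made within single classes. In astrocytes 24 of 36 genes were higher in Mut, beside 62.0% of all genes, and 0 were called by the same limits, beside 0.986% of all genes called higher and 0.472% called lower. In oligodendrocyte precursors 25 of 36 were higher (61.5% of all genes). There 1 gene was called higher (2.11% of all genes), Rab11fip3, with 12.8 and 18.1 CPM, and 0 were called lower (0.879%). In inhibitory neurons 28 of 36 were higher (64.7% of all genes), with 3 called higher (7.46%) and 0 called lower (2.16%). In microglia 28 of 34 were higher (66.5% of all genes), with 6 called higher (17.5%) and 1, Ehd1, called lower (5.03%). In endothelial cells 24 of 37 were higher (60.3% of all genes), with 2 called higher (9.46%) and 0 called lower (4.02%). In mural cells 24 of 34 were higher (60.0% of all genes), with 4 called higher (18.4%) and 1, Stam, called lower (8.7%). In the radial-marker cells 19 of 34 were higher (57.8% of all genes), with 4 called higher (13.6%) and 0 called lower (7.28%).

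For Ehd4, Snx2 and Ehd1 the ratio over all barcodes lay above the median over classes. Ehd4 had 25.8 CPM in WT and 40.2 in Mut over all kept barcodes, a log2 ratio of 0.55, while its median over classes was 0.06. Snx2 had 57.2 and 72.7 CPM, a log2 ratio of 0.32, against a median over classes of 0.06. For Ehd1 the sign differed: 47.2 and 52.0 CPM gave a log2 ratio of 0.13, against a median over classes of -0.10. Single classes lay apart from these medians: Ehd4 had a log2 ratio of 0.45 in mural cells, and Snx2 had 0.39 in the radial-marker cells and -0.24 in inhibitory neurons. Border-associated macrophages, the class with the highest level of each, numbered 86 in WT and 198 in Mut, and their part in this difference was not tested.

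A wider list of 85 other genes of the same routes, with further Rabs, their exchange factors and effectors, the HOPS and CORVET tethers, the commander complex and more ESCRT subunits, had 73 measured in at least 4 classes. Of these, 52 were higher in Mut, 21 lower and 0 called either way, with a median of 0.05, beside 69.7% of all genes above 0, 1.1% called higher and 0.456% called lower. Among those measured in all 7 classes, the highest medians were Tgfbrap1 (0.22), a CORVET subunit, Chmp7 (0.16), which nucleates ESCRT-III at the nuclear envelope, and the retromer subunit Vps26b (0.13). The lowest were Commd1 (-0.12), a commander complex subunit, the ESCRT-II subunit Snf8 (-0.12) and Tbc1d15 (-0.10), which switches off Rab7.

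Rab4a also differed between dividing and resting cells. Cells with at least 5 of 8 division markers were set against cells with at most 1 in the 3 classes with the most cells, which keeps the comparison inside a library. Rab4a was lower in dividing cells in all 6 comparisons. In WT astrocytes it had 18.1 CPM in resting and 9.18 in dividing cells, a ratio of 0.508 (0.397 to 0.644), and in Mut at 27.8 and 16.6, a ratio of 0.598 (0.497 to 0.714). In oligodendrocyte precursors the ratio was 0.494 (0.359 to 0.667) in WT and 0.635 (0.481 to 0.827) in Mut, and in inhibitory neurons 0.496 (0.290 to 0.819) and 0.596 (0.399 to 0.877). The shares of dividing cells in WT and Mut were 15.7% and 14.2% in astrocytes and 19.9% and 17.6% in oligodendrocyte precursors. They were 23.2% and 24.2% in the class set by inhibitory neuron markers. Whether dividing and resting cells of a class were at the same stage of differentiation was not examined. With the dividing cells left out, the Rab4a median log2 ratio of Mut to WT was 0.59, over 4 classes, beside 0.62 with them. How much of the Rab4a difference between the libraries goes with dividing cells was not tested.

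Other endosomal genes that differed by division, singled out after their values were seen, were Ehd1, Chmp2a and Rab11fip2. Ehd1 was higher in dividing cells, with 31.0 CPM in resting and 53.9 in dividing astrocytes of WT, a ratio of 1.74 (1.55 to 1.95), and 31.2 and 46.6 CPM in Mut, with an interval of 1.33 to 1.68. Its ratio was 1.55 and 1.47 in oligodendrocyte precursors and 1.75 and 1.39 in inhibitory neurons. Chmp2a was lower, at 205 and 141 CPM in WT astrocytes, a ratio of 0.688 (0.646 to 0.732), and its ratio lay between 0.608 and 0.772 in all 6 comparisons. Rab11fip2, which links Rab11 to myosin, lay between 0.590 and 0.741. Over all 38 genes, 3 of the 37 measured in WT astrocytes were at least 25% higher in dividing cells, beside 14.8% of all genes, and 3 were at least 20% lower, beside 16.8%. In Mut astrocytes 4 were higher (14.7% of all genes) and 4 lower (16.5%). In oligodendrocyte precursors 1 was higher in each library (13.9% and 14.2% of all genes), and 8 in WT and 5 in Mut were lower (23.6% and 24.2%). In inhibitory neurons 5 and 3 were higher (22.8% and 21.5%) and 7 and 9 lower (28.7% and 28.3%).

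**Figure D5:**
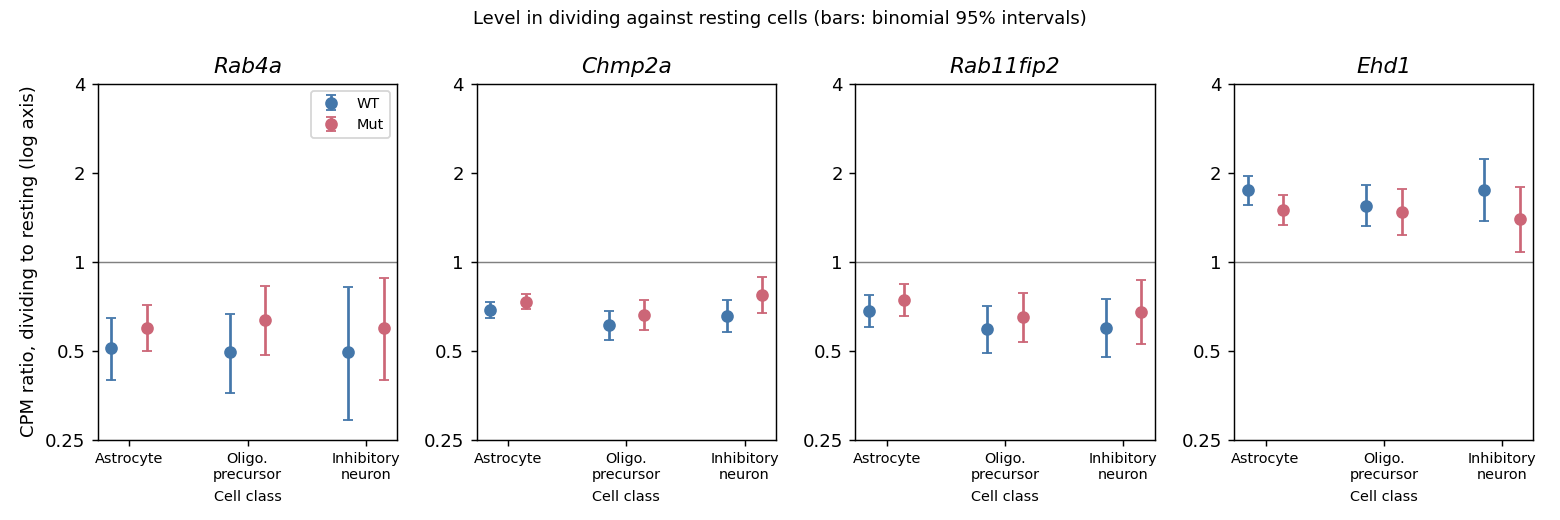
Ratio of the level in dividing to that in resting cells of the same class and library, on a log axis, for Rab4a, Chmp2a, Rab11fip2 and Ehd1 in astrocytes, oligodendrocyte precursors and inhibitory neurons; points are ratios of CPM of summed UMIs and bars exact binomial 95% intervals for counting error. Rab4a, Chmp2a and Rab11fip2 lie below 1 and Ehd1 above 1 in all 3 classes of both libraries.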

How the data were processed

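Single-cell RNA of 1 WT and 1 Mut library was analysed. The authors deposited raw counts of UMIs per gene and barcode, written by Cell Ranger 4 per the file headers. Cell Ranger, STAR and GRCm38 are named per the submitters' processing notes, and the sources used here do not give the annotation release. No cells had been called in these tables.

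Kept barcodes were classed by marker counts, with thresholds set after the marker counts had been seen. UMIs were summed per class and library and divided by the class total (CPM). No doublet caller was run: barcodes of 2 classes, radial glia and erythroid markers aside, were left out. Ratios are log2 of CPM plus 5, for genes with at least 30 UMIs over both libraries in a class. With 1 library per genotype no test was run; a call is a median ratio at least 25% higher or 20% lower over at least 4 of 7 classes. Intervals are exact 95% ones (Poisson for levels, binomial for ratios, Clopper-Pearson for shares) and cover counting error only. TMM factors came from edgeR 4.0.16; the ratio script was tested on simulated data. Positions are those of a GENCODE annotation (GRCm38) that holds 32235 of the 32285 deposited gene IDs. Named genes were Rab4a, genes called by their median ratio, the highest and lowest of each role, the 10 with the largest ratio of the highest to the median class level, and paralogs. The members and lists were chosen with earlier results of these data known. A result on 1 gene is not reported here.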

Additional observations from a re-analysis of the deposited data

Results flagged for a closer look

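Ehd1 had ratios of opposite sign in 2 compared classes that both passed the limits of 25% higher and 20% lower: Mut against WT gave a log2 ratio of 0.65 in mural cells (27.4 CPM in WT and 45.9 in Mut) and -0.32 in microglia (58.1 and 45.5). Stam, an ESCRT-0 subunit, had 0.36 in microglia (12.2 and 17.1 CPM) and -0.47 in mural cells (24.6 and 16.4). The difference between the classes was not tested, since each class has 1 sample per genotype. The exact binomial 95% interval of the ratio was 1.05 to 2.72 for Ehd1 in mural cells, and in microglia its lower end was 0.606 and its upper end just above 1. For Stam the intervals were 0.863 to 2.28 in microglia and 0.353 to 1.24 in mural cells, and both hold 1.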

How the results depend on the processing

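No paired analysis was possible because each genotype has 1 library, and for the same reason no replicate could be left out. The Rab4a median log2 ratio of 0.62 stayed above 0 in each of the 16 alternatives that gave one; it was 0.46 with barcodes of 2 classes put in the class with most markers, 0.74 with 1 CPM added, 0.48 in female cells and 0.77 in male cells. With each cell thinned to 1000 UMIs Rab4a was measured in 3 classes, higher in Mut in 3, and gave no median. The count of 2 other genes at least 25% higher became 1 with barcodes of 2 classes put in a class, the top 5% of UMIs left out or 1 marker more (Vps4a stayed past it, Snx1 at 0.31, 0.31 and 0.30), and in male cells (Snx1 0.30). It was 1 with TMM scaling (Vps4a 0.31) and in female cells (Vps4a 0.21), and 0 with thinning, where 15 of 26 genes were higher and 1, Vps26a, was at least 20% lower. The shares of all genes were not counted with thinning, so these thinned counts have no background beside them. The other alternatives, among them leaving out dividing cells or the radial-marker cells, which were chosen after seeing the data, moved no count of calls past 1.5 times. The number of genes 2-fold above every other class ran from 3 to 5 in WT and 4 to 5 in Mut. Depth limits the small classes: a gene at 10 UMIs, as Rab4a in WT mural cells, has a Poisson interval of 4.53 to 17.4 CPM.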
